A study of Mus musculus with 14 samples.

Results

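The study used mouse cells that had been partly reprogrammed from fibroblasts towards induced pluripotent stem cells (iPSCs). The comparison described here is that of clone 2B1 of these partial iPSCs infected with a retrovirus for Nanog, against 2B1 infected with the empty vector, 1 array each, both kept in embryonic stem cell medium with leukemia inhibitory factor and serum. Its members are the probe sets (groups of array probes that read 1 transcript) with exactly 1 gene symbol whose log2 signal differed by at least 1, a 2-fold difference, between these arrays. They were 335 of 34945 probe sets and lay in 260 of 18193 genes.

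The other 2B1 arrays carried Cnot1, Cnot2, Cnot3, Trim28, or all of Cnot1, Cnot2 and Cnot3 at once (the Cnot123 array), 1 array each, in the same medium. The rest of the series held 2B1 and 5C5 converted to iPSCs with 2i, embryonic stem cells (ESCs) of the lines Nanog-GFP and EBRTcH3, untreated partial iPSCs of clones 2B1 and 5C5, and embryonic fibroblasts of the Nanog-GFP transgenic mouse (MEFs), with 1 array per clone or line. The EBRTcH3 ESCs are labelled wild-type, and the age of the MEF embryos is given as 12.5 dpc (days post coitum) by the sample title and as 13.5 dpc by the series text. The 2i medium inhibits the kinases MEK and GSK3. All cells of clones 2B1 and 5C5 were female C57BL/6 cells, the Nanog-GFP ESCs were male C57BL/6 cells, the EBRTcH3 ESCs male 129sv cells, and the MEFs C57BL/6 cells of mixed sex. Each partial line is 1 clone, and all transduced arrays come from 2B1. Whether all or some of the infected cells expressed the factor was not stated in the labels.

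Nanog is a homeodomain transcription factor of the inner cell mass and of ESCs, where it acts with Pou5f1 (Oct4) and Sox2. In reprogramming it is known for its part in the last step from partial to genuine pluripotency. In the embryo it is also present in the posterior epiblast, where expression of Eomes begins.

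The probe set for Nanog did not read higher on the array that carries its name. Nanog read 3.12 on the Nanog-labelled array and 4.11 on the empty vector array, on the log2 signal scale. The other transduced arrays read 3.46 for Cnot1, 3.52 for Cnot2, 3.82 for Cnot3, 4.25 for Trim28 and 3.34 for Cnot123. All 7 readings lie below the table median of 5.42, among dim signals, so their order carries no meaning. On the arrays outside the transduced set the same probe set read 12.38 and 12.57 for the 2i iPSCs and 13.12 and 12.54 for the ESC lines, against 3.85 and 4.36 in untreated partial iPSCs. Where on the transcript its probes lie, and hence if they could read the introduced cDNA, could not be read from the sources used here. The probe set therefore does not bear the label out, nor can it settle it, and every direction below is that of the array labelled Nanog. The 6 probe sets of Cnot2, 2 of Cnot3 and 2 of Trim28 likewise showed no reading 1 or more above the empty vector on their own arrays, the highest such difference being 0.30.

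The reprogramming genes were close to equal on both arrays. Pou5f1 read 12.48 on the Nanog-labelled and 12.43 on the empty vector array. Sox2 read 3.22 on the Nanog-labelled and 3.07 on the empty vector array, against 12.66 to 12.91 in the 2i iPSCs and ESCs, whose arrays have other mean levels and were treated as separately normalized. Myc read 10.31 on the Nanog-labelled and 10.41 on the empty vector array. One of the probe sets of Klf4 read 10.18 on the Nanog-labelled and 10.08 on the empty vector array, with the other 5 factor arrays lower, between 7.50 and 8.53. These 2 arrays therefore stood together for this probe set, and the 5 others stood apart from both. The other probe set of Klf4 showed a narrower gap. It read 11.52 on the Nanog-labelled and 11.54 on the empty vector array, with the 5 others between 10.19 and 10.93.

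Of the 34945 probe sets, 122 in 96 genes read at least 1 higher on the Nanog-labelled array (0.349%) and 213 in 164 genes read at least 1 lower (0.61%). With 1 array on each side there is no test, no error and no replicate check of any single difference. Over all probe sets the median difference was 0.00017, with quartiles of -0.15 and 0.15. The higher members had a median difference of 1.31 and the lower members of -1.31. Most members lay near the threshold, with 80 of the higher and 142 of the lower under 1.5, and 16 of the higher and 18 of the lower at 2 or more. Just inside the threshold on the higher side were Slc7a7 (1.0017), Rasgrp1 (1.0029) and Nrip3 (1.0031), and just outside it were a probe set of Gsn (0.997), 1500009L16Rik (0.994) and 1700080N15Rik (0.990). On the lower side, Zfp882 (-1.0002), Prune2 (-1.0002) and Plcb4 (-1.0011) lay just inside, and Aass (-0.999), Rbm39 (-0.997) and Col4a2 (-0.996) just outside. Of the 260 genes, 162 had more than 1 probe set, and in 27 of these each probe set was a member. No gene had members on both sides. Bcl11a was the 1 gene with probe sets 0.5 or more from 0 on both sides.

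The Nanog-labelled array was the closest of the factor arrays to the empty vector. Differences of 1 or more in either direction were seen for 554 probe sets with Trim28 (1.59%), 1441 with Cnot2 (4.12%), 1687 with Cnot3 (4.83%), 2201 with Cnot1 (6.3%) and 2700 with Cnot123 (7.73%). These counts all share the 1 empty vector array.

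The largest positive difference was that of Trap1a, an X-linked gene known as the tumour rejection antigen P1A, expressed in testis and placenta. Trap1a read 7.47 on the Nanog-labelled array, against 3.46 on the empty vector array, a difference of 4.02. On the Cnot1, Cnot2, Cnot3, Trim28 and Cnot123 arrays it read 4.05, 3.76, 3.44, 3.97 and 3.95, so that all 6 other arrays lay within 1 log2 unit of each other and the Nanog-labelled array stood 3.42 above the highest of them. Eomes, a T-box transcription factor of mesendoderm and trophoblast, read 10.63 on the Nanog-labelled array and 7.64 on the empty vector array. Eomes was not uniform elsewhere, with 3.42 on Cnot1, 5.18 on Cnot2, 6.66 on Cnot3, 7.80 on Trim28 and 4.08 on Cnot123. The Trim28 and empty vector arrays were the nearest, 2.83 or more below the Nanog-labelled array, and the second probe set of Eomes gave a difference of 2.90 from the empty vector. Evx1, a homeobox gene of the primitive streak, read 7.20 on the Nanog-labelled array and 4.69 on the empty vector array, with the 5 others between 4.07 and 4.46. Tgm3, a transglutaminase of the epidermis, read 8.50 on the Nanog-labelled array and 5.13 on the empty vector array, with the 5 others between 5.03 and 5.55. Its second probe set also read higher, by 1.01.

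The genes with large differences in each direction include regulators of the early embryo, and the sequence before the start of 5 of them is shown so that matches to homeodomain and Oct motifs can be seen. These are the 4 genes named as markers of the comparison, Trap1a, Tgm3, Eomes and Aldh1a2, together with Evx1. Each is the 250 bases before the annotated start, on the plus strand of GRCm38.p6, from RefSeq. Capitals mark matches on either strand to TAATGG, the core that Nanog is known to bind, to TAATTG, a common homeodomain core, or to ATGCAAAT, the octamer of Oct factors.
Trap1a: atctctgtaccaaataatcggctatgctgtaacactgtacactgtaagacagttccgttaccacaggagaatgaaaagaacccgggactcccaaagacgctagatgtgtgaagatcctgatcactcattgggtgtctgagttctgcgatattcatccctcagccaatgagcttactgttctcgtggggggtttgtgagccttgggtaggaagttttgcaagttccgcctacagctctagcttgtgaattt
Tgm3: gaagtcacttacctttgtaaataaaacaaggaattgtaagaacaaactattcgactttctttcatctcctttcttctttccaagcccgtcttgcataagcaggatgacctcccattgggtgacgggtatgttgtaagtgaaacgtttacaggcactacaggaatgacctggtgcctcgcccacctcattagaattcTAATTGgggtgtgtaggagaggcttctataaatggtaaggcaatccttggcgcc
Eomes: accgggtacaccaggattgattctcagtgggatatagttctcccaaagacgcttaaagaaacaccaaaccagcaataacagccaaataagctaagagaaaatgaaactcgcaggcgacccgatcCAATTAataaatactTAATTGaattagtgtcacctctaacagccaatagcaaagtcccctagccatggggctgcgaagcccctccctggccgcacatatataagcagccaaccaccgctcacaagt
Evx1: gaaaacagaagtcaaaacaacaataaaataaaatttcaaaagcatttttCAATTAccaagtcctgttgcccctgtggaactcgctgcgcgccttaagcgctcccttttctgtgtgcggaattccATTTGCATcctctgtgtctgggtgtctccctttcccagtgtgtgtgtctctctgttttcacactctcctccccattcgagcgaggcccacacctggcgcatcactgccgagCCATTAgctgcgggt
Aldh1a2: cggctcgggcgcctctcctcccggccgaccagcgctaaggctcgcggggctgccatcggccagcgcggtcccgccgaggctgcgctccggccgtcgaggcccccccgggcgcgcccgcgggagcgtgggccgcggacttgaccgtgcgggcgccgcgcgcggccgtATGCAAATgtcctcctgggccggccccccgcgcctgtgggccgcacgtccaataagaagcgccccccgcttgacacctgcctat
Trap1a (chrX:139333433-139333682) held none of these motifs in this window. Tgm3 (chr2:130012090-130012339) held 1 match, to TAATTG. Eomes (chr9:118477939-118478188) held 2, both to TAATTG, 1 on each strand. Evx1 (chr6:52313248-52313497) held 1 match to each of the 3 motifs, all on the minus strand, and Aldh1a2 (chr9:71215539-71215788) held 1 octamer. Of the 96 genes that read higher, 78 had a promoter in the RefSeq table, with 105 promoter windows, and 11 of these held TAATGG (10.5%). Of the 164 genes that read lower, 123 had one, with 166 windows, and 5 held it (3.01%). Over all 18109 windows of genes on the array the share was 4.89%. A gene can have more than 1 window, so windows are not independent. Genes with a match were not counted, and the shares were not tested. TAATTG was held by 6.67% of the windows of higher genes, 3.61% of those of lower genes and 5.18% of all, and ATGCAAAT by 1.9% of those of higher genes, 1.2% of those of lower genes and 1.3% of all. TAATGG and TAATTG share their first 4 letters, and no matches overlapped in the windows shown. A match is a string of letters and not a bound site.

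**Figure D1:**
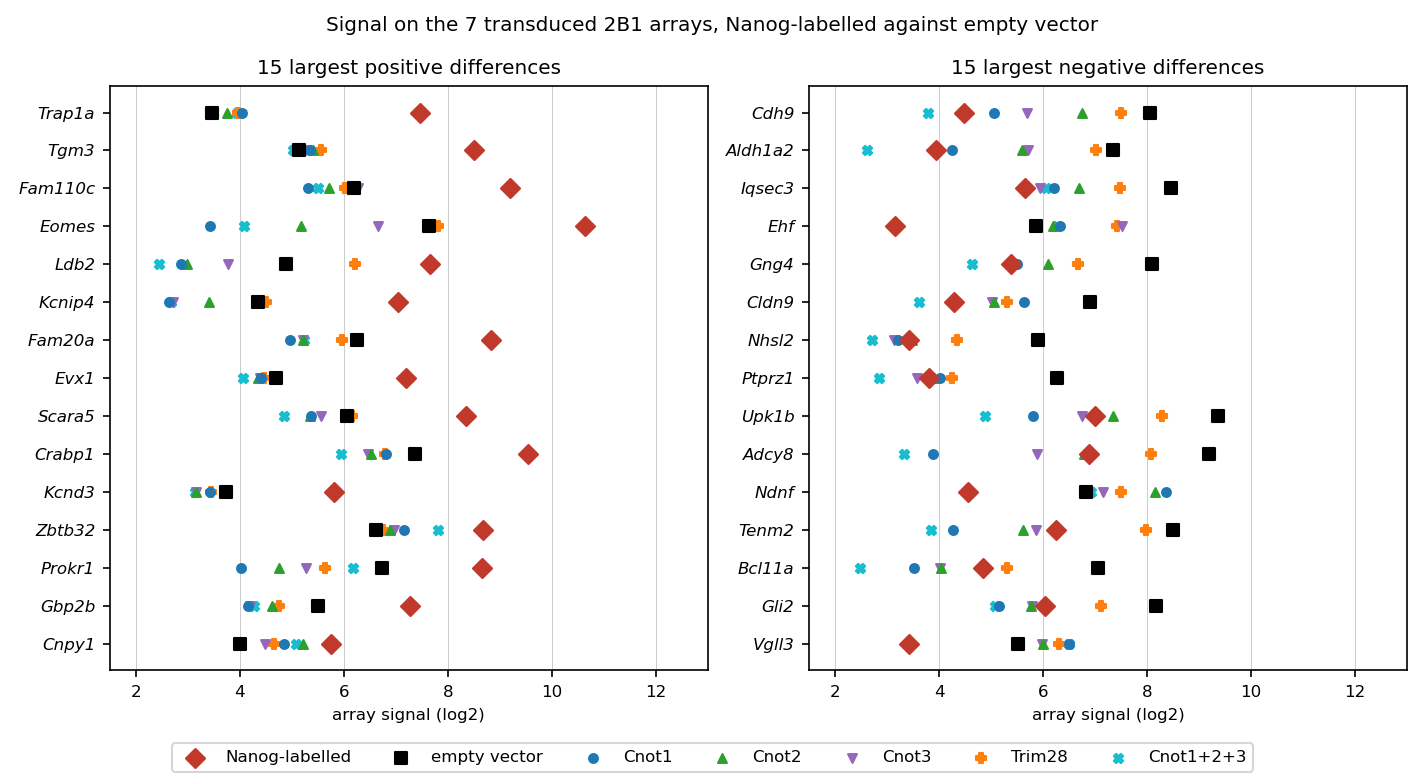
Log2 array signal (x axis) of the 15 genes with the largest positive (left) and the 15 with the largest negative (right) differences between the Nanog-labelled array (red diamonds) and the empty vector array (black squares), with the 5 other factor arrays of 2B1 as smaller symbols, 1 array each. On the left the red diamonds stand to the right of the other 6 symbols, as for Trap1a at 7.47, whereas on the right the black squares are the rightmost symbol for 12 of the 15 genes.

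The other genes among the 15 largest positive differences were of several kinds. Fam110c, which encodes a protein of the centrosome and spindle pole, read 9.19 on the Nanog-labelled array and 6.20 on the empty vector array, with the 5 others between 5.31 and 6.27. Ldb2, a LIM domain binding cofactor of transcription, read 7.65 on the Nanog-labelled array and 4.89 on the empty vector array, and 6.22 on the Trim28 array. Fam20a, a pseudokinase of the secretory pathway known for its part in enamel formation, read 8.84 on the Nanog-labelled array and 6.25 on the empty vector array, which was the highest of the other 6. Crabp1, a cytoplasmic retinoic acid binding protein, read 9.54 on the Nanog-labelled array and 7.36 on the empty vector array. Scara5, a scavenger receptor for ferritin, read 8.35 on the Nanog-labelled array and 6.06 on the empty vector array. Kcnip4 and Kcnd3, a subunit that binds Kv4 potassium channels and a Kv4 channel, were 2.69 and 2.08 higher. Prokr1, a prokineticin receptor, was 1.91 higher, Zbtb32, a zinc finger repressor, 2.05, Gbp2b, an interferon-inducible GTPase, 1.77, and Cnpy1 1.75. For each of these 15 genes, read by its probe set with the largest difference, the Nanog-labelled array was above all other 6, with the narrowest gap, 0.53, for Cnpy1. Other probe sets of the same gene did not always differ. The lowest difference was -0.06 for Scara5, 0.12 for Kcnd3, 0.28 for Zbtb32 and 0.82 for Prokr1. It was 1.18 or more for Fam110c, Ldb2, Kcnip4 and Cnpy1.

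The largest negative difference was that of Cdh9, a cell adhesion cadherin. Cdh9 read 4.48 on the Nanog-labelled array and 8.06 on the empty vector array, a difference of -3.59. The other arrays spread between them, with 5.06 on Cnot1, 6.76 on Cnot2, 5.69 on Cnot3, 7.50 on Trim28 and, below the Nanog-labelled array, 3.78 on Cnot123. Aldh1a2, the main enzyme of retinoic acid synthesis in the embryo, read 3.94 on the Nanog-labelled array and 7.34 on the empty vector array. It read 4.25 on Cnot1, 5.59 on Cnot2, 5.71 on Cnot3, 7.02 on Trim28 and 2.62 on Cnot123, so that its low level was shared with the Cnot1 and Cnot123 arrays. Iqsec3, a guanine nucleotide exchange factor of synapses, read 5.65 on the Nanog-labelled array and 8.47 on the empty vector array, with the 5 others between 5.95 and 7.49. Adcy8, an adenylyl cyclase, read 6.89 on the Nanog-labelled array and 9.20 on the empty vector array, with 3.88 on Cnot1 and 3.33 on Cnot123. Here the Nanog-labelled array was the third highest of the 7, and the empty vector array the highest.

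Among the 7 transduced arrays, a smaller set was low on the Nanog-labelled array alone. Ehf, an epithelial ETS transcription factor, read 3.15 on the Nanog-labelled array and 5.87 on the empty vector array, with the 5 others between 6.18 and 7.51. Ndnf, a secreted neurotrophic factor, read 4.56 on the Nanog-labelled array and 6.83 on the empty vector array, with the 5 others between 6.93 and 8.36. Vgll3, a cofactor of TEAD factors, read 3.42 on the Nanog-labelled array and 5.52 on the empty vector array, with the 5 others between 5.98 and 6.50. Vat1l read 3.97 on the Nanog-labelled array and 5.94 on the empty vector array, and Fxyd6, a regulator of the sodium pump, read 4.82 on the Nanog-labelled array and 6.77 on the empty vector array, with the 5 other arrays above the empty vector for both. For these 5 genes the Nanog-labelled array was the lowest of the 7 and the empty vector array the second lowest. Low readings were also seen outside the transduced set, on arrays treated as separately normalized. There Ehf read 6.86 in untreated 2B1 and between 2.66 and 2.95 on all others, untreated 5C5 among them. Vat1l read 9.39 in untreated 2B1, 5.77 in untreated 5C5 and 4.09 to 4.64 in 2i iPSCs and ESCs. Vgll3 read 5.09 or more and Fxyd6 5.78 or more on each of these arrays. The remaining genes among the 15 largest negative differences were Gng4 (-2.71), a G protein gamma subunit, Cldn9 (-2.62), a tight junction claudin, Nhsl2 (-2.47), Ptprz1 (-2.46), a receptor tyrosine phosphatase, Upk1b (-2.37), a urothelial uroplakin, Tenm2 (-2.24), a teneurin, Bcl11a (-2.20), a zinc finger repressor, and Gli2 (-2.13), a transcription factor of Hedgehog signalling. In these the empty vector array was the highest of the 7. Here too, other probe sets of the same gene did not always differ. The highest difference was -0.03 for Cldn9, 0.03 for Gng4, 0.05 for Ptprz1, 0.08 for Tenm2, 0.23 for Ehf and 0.77 for Bcl11a. It was -0.62 for Ndnf and -0.72 for Vgll3, and -1.42 or lower for Nhsl2, Upk1b and Gli2.

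The 2 directions thus differed in how far they were particular to the Nanog-labelled array. Of the 122 higher members, the Nanog-labelled array was above all other 6 transduced arrays in 100, and by at least 1 in 59 probe sets of 48 genes (0.169% of all probe sets). Of the 213 lower members it was below all other 6 in 58, and by at least 1 in 28 probe sets of 20 genes (0.0801%). Against the median of the 5 other factor arrays in place of the empty vector, 84 of the 122 higher members were still at least 1 higher, and 7 were on the opposite side of 0. Of the 213 lower members, 42 were still at least 1 lower, and 110 were on the opposite side of 0. These counts use the array that chose the members and are given as descriptions.

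**Figure D2:**
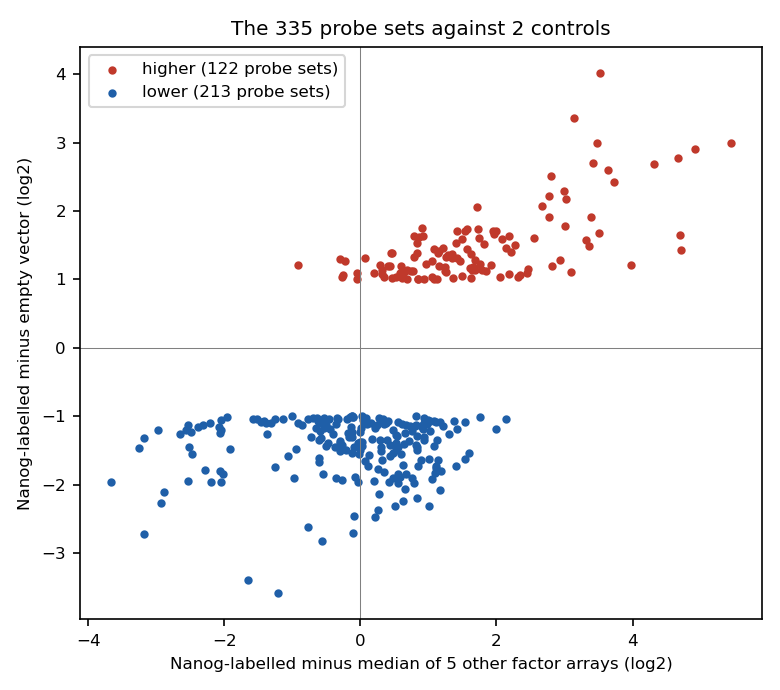
Each of the 335 probe sets by its log2 difference from the empty vector array (y axis) and from the median of the 5 other factor arrays (x axis), with the 122 higher members in red and the 213 lower members in blue. The gap between -1 and 1 on the y axis is the rule, and 7 red points lie left of 0 while 110 blue points lie right of it.

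The control of the comparison also had readings of its own. The empty vector array was at least 1 above all other 6 transduced arrays in 71 probe sets (0.203%), and at least 1 below in 1 probe set, while the Cnot123 array stood apart in more, with 45 above and 134 below. The empty vector array was above all 5 other factor arrays in 164 of the 213 lower members, and below all 5 in 33 of the 122 higher members. The lower members had a median level of 5.01 on the Nanog-labelled array and 6.49 on the empty vector array. On the other arrays this median was 5.06 for Cnot1, 5.48 for Cnot2, 5.38 for Cnot3, 5.92 for Trim28 and 4.65 for Cnot123. The first 2 of these values are those the rule used. The 5 others lay below the empty vector array by 0.58 or more and around the Nanog-labelled array. The rule favoured members with a high empty vector reading on this side, so part of that gap was built in. The same selection enters the counts of 164 and 33 members, which are descriptions. For the higher members the order was different. Their median level was 7.11 on the Nanog-labelled array and 5.55 on the empty vector array, and between 5.14 and 5.65 on the 5 others.

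**Figure D3:**
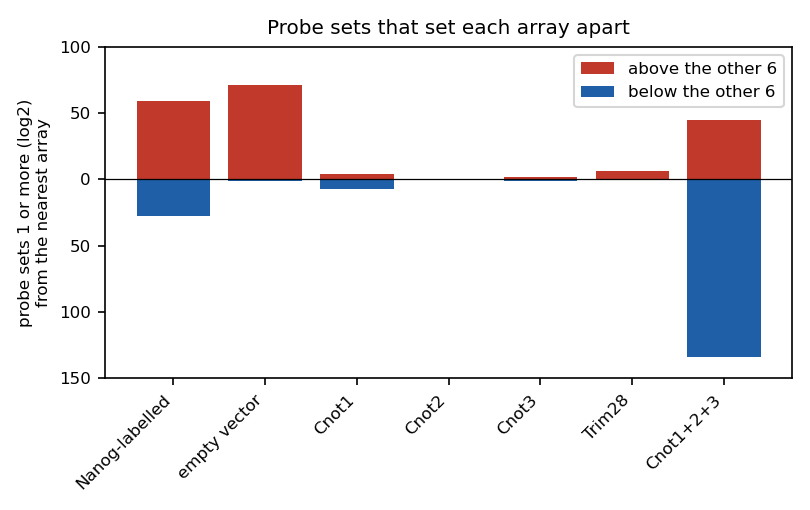
Number of probe sets in which each of the 7 transduced 2B1 arrays lay at least 1 log2 unit above (red, upward) or below (blue, downward) all other 6. The Nanog-labelled array had 59 above and 28 below, the empty vector array 71 above and 1 below, and the Cnot123 array 45 above and 134 below.

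In the untreated cells, which the rule did not use, the members were compared between the clones. Clone 5C5 read at least 1 above clone 2B1 in 112 of the 213 lower members (52.6%), against 3.93% of all probe sets, and at least 1 below in 16 (7.51%), against 3.05% of all probe sets. Of the 122 higher members, 5C5 read at least 1 above 2B1 in 26 (21.3%) and at least 1 below in 23 (18.9%), against the same 3.93% and 3.05%. Both sets thus differed between the clones in a larger share than all probe sets, the lower members mostly with 5C5 above and the higher members both ways. The median level of the lower members was 6.55 in untreated 5C5 and 5.24 in untreated 2B1, the clone that had been transduced. Adcy8 read 8.89 in untreated 5C5 and 3.28 in untreated 2B1, and Aldh1a2 read 8.68 in untreated 5C5 and 4.70 in untreated 2B1. Levels of the transduced arrays and of the untreated ones were treated as separately normalized, from their array means, which no label states, so they are set side by side here and not subtracted. The part of the empty vector array, or of differences in the make-up of the 2B1 cultures, in the lower members was not tested, and with 1 array each they cannot be told apart from an effect of the factor. On the X chromosome lay 3 of the higher members (2.46%) and 18 of the lower members (8.45%), against 3.23% of all probe sets.

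**Figure D4:**
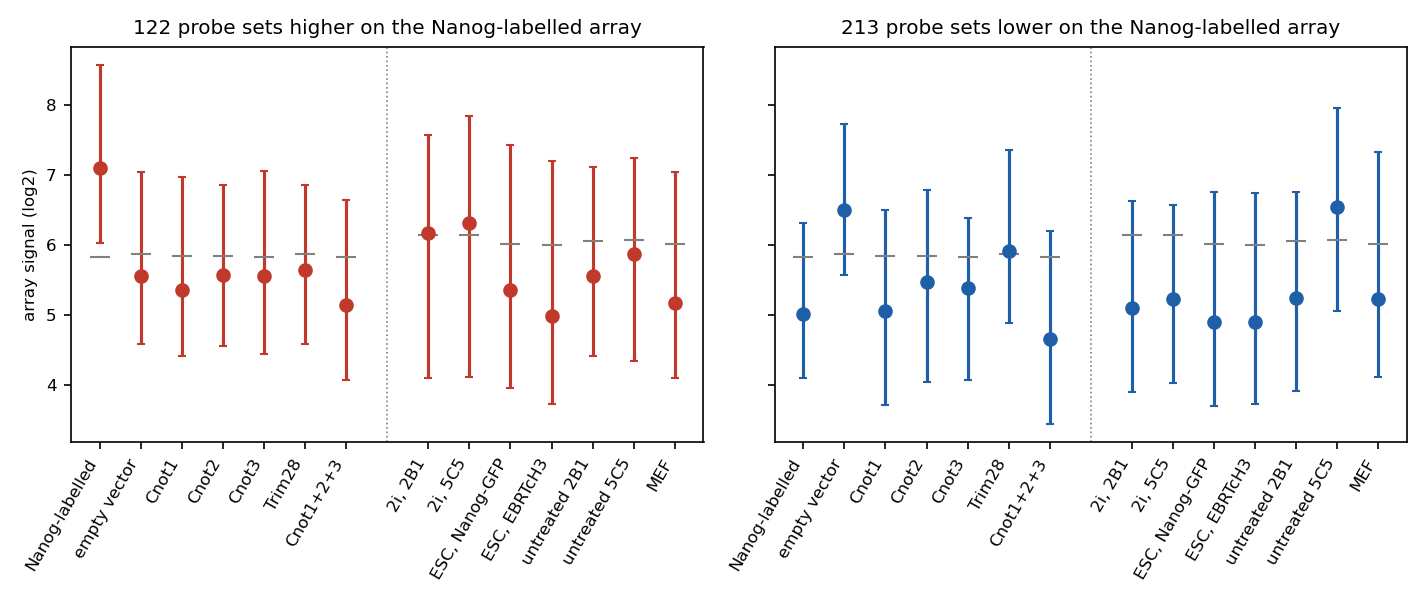
Median log2 signal (points) with quartiles (bars) of the 122 higher members (left) and the 213 lower members (right) on each of the 14 arrays, and the median of all probe sets with 1 gene (grey dashes). The dotted line divides the transduced arrays from the others, which were treated as separately normalized. For the lower members the empty vector array (6.49) and untreated 5C5 (6.55) had the highest medians.

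Lists of genes with known roles were then read for members. Of 533 symbols in 38 lists, 481 had a probe set with a single gene, and 26 of these were members (5.41%). Over all 18193 genes the share was 1.43%, with 0.528% higher and 0.901% lower. The lists were chosen with earlier results of these data known and hold the marker genes Trap1a, Tgm3, Eomes and Aldh1a2. The share of 5.41% was therefore partly set by that choice and is a description. No member was found in 24 of the lists. The 20 naive pluripotency genes held none, with a median difference of 0.02 and extremes of -0.99, at Nanog itself, and 0.53. In the 2i iPSCs, 14 of these 20 genes had a probe set called higher in the test described below. The 15 general pluripotency genes (median -0.12), the 11 primed epiblast genes (0.0047) and the 20 germline genes (0.0043) held none either, nor did the lists of ERK, Wnt, BMP and LIF targets. The median over all probe sets was 0.00017.

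Among signals and regulators of the primitive streak, 2 of 15 mesendoderm genes were members, Eomes and Evx1, both higher, and the median of the list was 0.10. Of 17 measured genes of the Nodal and Activin pathway, Nodal itself was a member with 1 of its 2 probe sets. That probe set read 6.36 on the Nanog-labelled array and 5.35 on the empty vector array, just inside the threshold at 1.009. The other probe set of Nodal gave 0.24. Nodal is the ligand that induces Eomes in the embryo. The other factor arrays read the member probe set of Nodal between 5.27 and 5.72, all below the Nanog-labelled array. The trophoblast list held Eomes as its 1 member among 16 genes.

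Of 19 measured genes of retinoid metabolism, 3 were members. The enzyme Aldh1a2 (-3.40) and the retinol uptake receptor Stra6 (-1.01) read lower, and the binding protein Crabp1 (2.18) read higher. Stra6 read 4.40 on the Nanog-labelled array and 5.41 on the empty vector array, with the 5 others between 4.19 and 4.89, all below the table median. The median of the list was -0.04.

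Of 15 measured interferon response genes, 3 were members and all read higher. Gbp2, a GTPase of cell defence, gave 1.60 and 1.29 with its pair of probe sets. Ifit1, which binds foreign RNA, read 6.86 on the Nanog-labelled array and 5.35 on the empty vector array, with the 5 others between 3.47 and 5.14. Oasl2, of the oligoadenylate synthetase family, was 1.41 higher, with 6.62 on the Nanog-labelled array and 6.39 on the Cnot2 array. The list had a median difference of 0.31, the highest of the 38 lists. Psmb8, a subunit of the immunoproteasome, was 1.37 higher in 1 of its 2 probe sets and 0.04 in the other. It was the 1 member among 9 antigen processing genes. In untreated 2B1, among the arrays treated as separately normalized, Ifit1 read 6.96 and Oasl2 7.31.

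Of 19 epithelial genes, 4 were members, all lower, and 15 were not, with a list median of -0.19 and a highest difference of 0.98. The 4 were the keratin Krt8 with a pair of probe sets (-1.45 and -1.35), the claudins Cldn4 (-1.78) and Cldn7 (-1.09), and the small GTPase Rab25 (-1.23). Krt8 read 9.06 on the Nanog-labelled array and 10.41 on the empty vector array, and between 4.70 and 8.92 on the 5 others, so that the Nanog-labelled array was the second highest. Of 23 epidermal genes, Tgm3 read higher. The cornified envelope genes Lor (-2.07) and Evpl (-1.02) and the keratin Krt17 (-1.38) each had 1 lower member probe set. Other probe sets reached 0.42 for Lor and 0.31 for Krt17. Of 25 fibroblast genes, the repressor of epithelial genes Zeb2 (-1.67 and -1.13) and the proteoglycan Dcn (-1.30) were members, both lower. Zeb2 had 5 probe sets, the highest at 0.26, and the second probe set of Dcn gave 0.00011. The embryonic globin Hbb-y, the 1 member among 11 measured blood and macrophage genes, read lower with its 3 probe sets (-1.30, -1.18 and -1.07), at 8.08 on the Nanog-labelled array and 9.39 on the empty vector array for the first. None of the 7 endothelial, 9 neural, 7 muscle and 8 mesoderm marker genes was a member. Other single members of lists were Ndrg1, a gene of the hypoxia response (1.71, 1.38 and 1.32), and the imprinted Plagl1 (1.12). Among 16 amino acid transporters, Slc7a7 (1.0017) and Slc6a14 (-1.44) were members, the latter with both readings below the table median.

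The arrays of 2i iPSCs, ESCs and untreated partial iPSCs took no part in the rule and allow a test. They were compared with limma on 6 arrays, 2 per group from separate clones or lines, for the 22693 probe sets that reached the table median of 5.42 on at least 2 arrays. Of the members, 99 of the 122 higher and 180 of the 213 lower passed this filter. The filter counted the Nanog-labelled and empty vector arrays too, so members that pass may do so through the array where they are high.

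In 2i iPSCs against untreated partial iPSCs, 596 probe sets were called higher (2.63%) and 480 lower (2.12%) at an adjusted p below 0.05. Leaving out the untreated array of 2B1 gave 218 and 303, and that of 5C5 246 and 233. Leaving out the 2i array of 2B1 gave 43 and 13, and that of 5C5 33 and 13. With 1 of the ESC arrays left out, the counts were 1149 and 845. Of the 99 higher members tested, 8 were called higher (8.08%) and 2 lower (2.02%). Trap1a showed the largest change among them: it read 12.41 and 12.20 in 2i iPSCs and 4.73 and 4.05 in untreated partial iPSCs, a log2 fold change of 7.91 (SE 0.33, limma adjusted p = 0.00125). The groups did not overlap, and ESCs read 12.52 and 11.93, with a log2 fold change of 7.83 over untreated cells (limma adjusted p = 0.000781). On the Nanog-labelled array Trap1a read 7.47, between these levels, though that array was treated as separately normalized. The other 7 were chosen for naming after their values were seen: Tex14, a gene of germ cell bridges (5.26), the glycosyltransferase gene B3gnt5 (4.33), Ifit1 (2.28), the transporter gene Slc16a14 (2.27), a probe set of Cnpy1 (1.81), the GTPase gene Irgm1 (1.65) and the epithelial factor gene Grhl3 (1.64). Prickle2, of planar cell polarity (-3.12), and A630001G21Rik (-2.35) were called lower. With the clone as a replicate block, 13 were called higher and 4 lower. Leaving out the untreated array of 2B1 gave 5 higher and 6 lower, and leaving out that of 5C5 gave 3 higher. With 1 of the 2i arrays left out, 2 were called higher and 0 lower, and with 1 of the ESC arrays left out, 14 higher and 4 lower. Of the 10 calls, those of Trap1a and Tex14 held in each alternative run. On the Nanog-labelled and empty vector arrays, though, Tex14 read below the table median, and its difference there was 1.10.

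Of the 180 lower members tested, 17 were called lower (9.44%) and 9 higher (5%) in 2i iPSCs. Ndnf read 3.96 and 3.89 in 2i iPSCs and 8.09 and 8.04 in untreated partial iPSCs, a log2 fold change of -4.14 (SE 0.21, limma adjusted p = 0.00175), and the call was lost without the 2i array of 5C5 (adjusted p = 0.0516). Hbb-y fell with its 3 probe sets, by 7.28 in the first (limma adjusted p = 0.00108). Also called lower, and named after their values were seen, were Akr1c14, a steroid dehydrogenase gene (-5.10), Arpp21 (-5.23), Calcb, of the calcitonin family (-4.18), the T-box gene Tbx15 (-3.45), the chemokine gene Ppbp (-3.30), Sall3 (-3.42 and -3.01) and Trib2 (-3.46 and -2.31). Called higher, against the direction on the Nanog-labelled array, were among others Morc1, a germline silencing gene (6.17), Amph (4.25) and the sex determination gene Dmrt1 (4.18). Tenm3 (3.79 and 1.69) and Gldc, of glycine cleavage (3.00), were also called higher. Morc1 read below the table median on the Nanog-labelled and empty vector arrays, with a difference of -1.003. Leaving out the untreated array of 2B1 gave 44 called lower, and leaving out the 2i arrays of 2B1 or 5C5 gave 5 or 4 called lower and 0 called higher. Of the 26 calls, those of Akr1c14 and of the 3 probe sets of Hbb-y held in each alternative run.

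In ESCs against the same untreated arrays, 1224 probe sets were called higher (5.39%) and 1935 lower (8.53%). The untreated cells were female and both ESC lines male, with EBRTcH3 also of another strain. Sex, and in part strain, therefore cannot be told apart from cell state in this comparison. Leaving out the untreated array of 2B1 gave 510 and 1153, and that of 5C5 727 and 1394. With 1 of the 2i arrays left out, the counts were 415 and 715. Of the 99 higher members tested, 13 were called higher, in 8 genes (13.1%), and 16 lower, in 15 genes (16.2%). The 3 interferon genes were among those called lower in ESCs, with Ifit1 at -3.51 (limma adjusted p = 0.00299), Oasl2 at -3.30 and Gbp2 at -3.17. Nodal was called higher (3.07, limma adjusted p = 0.0245), a call lost on the 4 compared arrays alone and in several runs with 1 array left out. Of the 180 lower members tested, 31 were called lower (17.2%) and 12 higher (6.67%). Vgll3 was lower (-2.95, limma adjusted p = 0.00311) and Gli2 higher (3.88, limma adjusted p = 0.0195). The Gli2 call was lost on the 4 compared arrays alone and without the Nanog-GFP ESC array. Leaving out either 2i array gives the same fit as those 4 arrays, so it is not a separate check. Both comparisons use the same untreated arrays, so their counts are not independent. Leaving out the untreated array of 2B1 turned the 31 into 62 and the 13 into 8, and leaving out that of 5C5 turned the 12 into 21. With 1 of the 2i arrays left out, the 13 became 7, the 16 became 9, the 31 became 17 and the 12 became 7.

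Eomes, Tgm3, Crabp1 and Aldh1a2 passed the test in neither comparison. Eomes read 6.22 and 6.68 in 2i iPSCs and 4.13 and 6.68 in untreated partial iPSCs, a log2 fold change of 1.05 (SE 0.82, limma adjusted p = 0.518), with the groups overlapping. Tgm3 read 5.04 and 5.17 in 2i iPSCs and 5.41 and 4.96 in untreated partial iPSCs. No array of the series other than the Nanog-labelled one read Tgm3 above 5.57. Aldh1a2 read 4.79 and 5.53 in 2i iPSCs, 5.84 and 6.30 in ESCs, and 4.70 and 8.68 in untreated partial iPSCs, where the clones differed by more than the groups. Evx1 stayed below the filter and was not tested, with readings between 4.13 and 4.92 on the 7 arrays outside the transduced set.

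**Figure D5:**
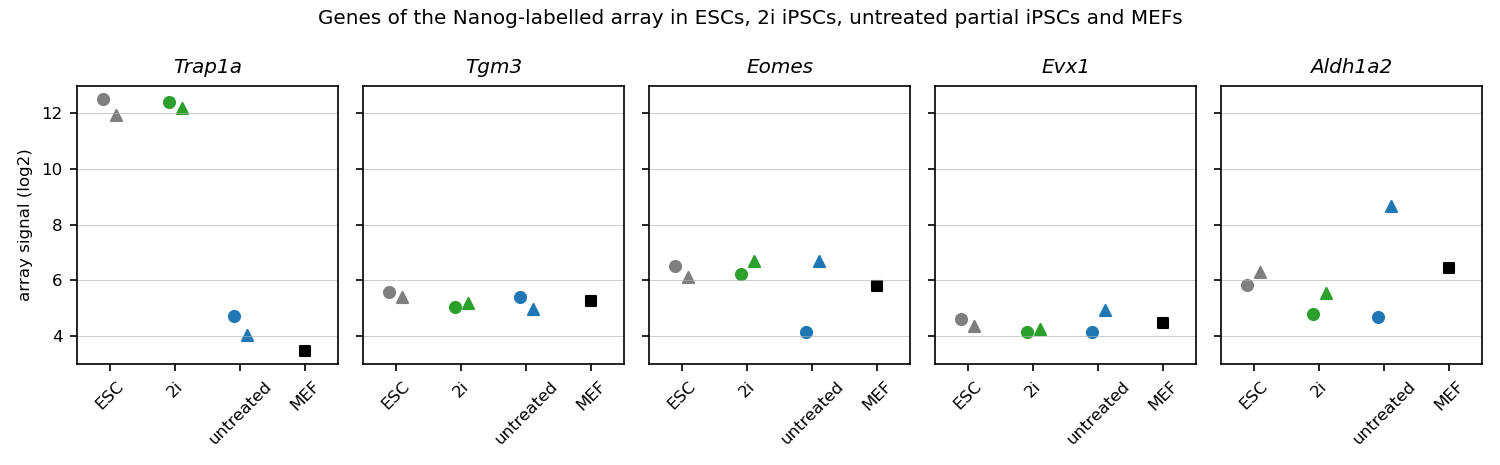
Log2 array signal of 5 genes in ESCs, 2i iPSCs, untreated partial iPSCs and MEFs (1 point per array; circles are Nanog-GFP ESCs or clone 2B1, triangles EBRTcH3 ESCs or clone 5C5, squares MEFs). Trap1a lies above 11.9 in ESCs and 2i iPSCs and below 4.8 in untreated cells, whereas Tgm3 and Evx1 lie below 5.6 on each array and Aldh1a2 is highest in untreated 5C5.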

How the data were processed

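Total RNA was prepared with TRIzol, per the labels' protocols, and hybridised to Affymetrix mouse arrays, 14 arrays with 45101 probe sets. The deposited values are log2 signals that the authors made with RMA and affy, per the submitters' processing notes; their versions and settings, and a genome build, were not stated there. As a method, RMA corrects background, normalizes quantiles and summarises probes. The array means were 5.87 to 5.88 for the 7 transduced 2B1 arrays and 6.09 for the other 7, so these blocks were treated as normalized separately. Differences were taken within a block, except in the alternative with untreated 2B1 as control. Genes came from the platform annotation: 34945 probe sets with 1 gene symbol were used, while 932 with several, 9160 with none and 64 controls were left out; 34741 matched RefSeq (GRCm38.p6) by gene ID, which gave chromosomes and promoters.

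The difference of the Nanog-labelled and empty vector arrays was taken per probe set, with no test and no count of reads or depth behind it; the number of arrays limits the precision. 2i iPSCs and ESCs were compared with untreated partial iPSCs in limma 3.58.1 (R 4.3.3, functions lmFit and eBayes; 3 residual and 2.39 prior degrees of freedom), two-sided, with Benjamini-Hochberg adjustment over 22693 probe sets that reached 5.42, the median of the table, on at least 2 arrays. Nothing in the labels says that arrays of a group repeat a clone, and the p-values cover only the spread from clone to clone or line to line. Each clone gave 1 untreated and 1 2i array, which pairs them; their deviations from the group means had a correlation of 0.12 across probe sets, and a fit with a replicate block for the clone was also run. The limma script was tested on simulated data.

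The members and the 38 gene lists were chosen with earlier results of these data known. Genes named are the factors and 4 marker genes, the 15 largest differences each way in which 1 of the 2 arrays reached the table median, the 5 each way farthest beyond the other 6 transduced arrays, the 3 each way just inside and outside the threshold, and list members; others are said to be named after their values were seen. Alternatives were centring on the median, quantile normalization, a filter on dim probe sets, 1 probe set per gene, a threshold of 1.5, other control arrays, and leaving out each array. Summaries used Python 3.11.15 with pandas 2.3.3 and numpy 2.4.6, and plots matplotlib 3.10.9.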

Additional observations from a re-analysis of the deposited data

Results flagged for a closer look

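Outside the probe sets with a single gene symbol, 10092 probe sets have several symbols or none, and the comparisons above do not use them. On the Nanog-labelled array, 20 of these read at least 1 higher than on the empty vector array and 33 at least 1 lower. In 11 of them the Nanog-labelled array was at least 1 above all other 6 transduced arrays, and in 3 at least 1 below. The widest gap was that of probe set 1425078_x_at, which read 6.46 on the Nanog-labelled array and 2.90 on the empty vector array, with 2.74 to 3.68 on the 5 others. Probe set 1435792_at read 6.81 on the Nanog-labelled array and 4.28 on the empty vector array, and 1443219_at, the lowest of them, read 4.72 on the Nanog-labelled array and 6.19 on the empty vector array. There is no replicate of either array, and no group of 4 or more arrays in which a single array could be tested against the rest.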

How the results depend on the processing

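Each count rests on 1 array per side or 2 arrays per group, and dim signals lie in the background. Centring and quantile normalization kept each of the 4 counts of the transduced arrays within 1.5 times its value, as did the filter on dim probe sets. At a threshold of 1.5 there were 42 higher and 71 lower probe sets against the empty vector, and 23 above and 10 below all other 6 arrays. With 1 probe set per gene, 123 were lower and 14 below all other 6. Against the median of the 5 other factor arrays, 776 were higher and 550 lower, and against untreated 2B1, treated as separately normalized, 1289 and 3181. The array mean was 5.87 for the Nanog-labelled array and 6.09 for untreated 2B1. This offset was not removed, so it enters each count and sign against untreated 2B1 and moves them towards lower. Centred and quantile-normalized values kept all 30 of the largest differences at 1 or more. Against the factor median, 14 of the 15 positive and 5 of the 15 negative ones stayed at 1 or more. There the sign turned for Nhsl2 (0.22), Upk1b (0.25), Adcy8 (1.01), Tenm2 (0.63), Bcl11a (0.84) and Gli2 (0.28), and against untreated 2B1 for Cdh9 (0.066), Gng4 (1.25), Upk1b (1.23), Adcy8 (3.61), Tenm2 (2.44), Bcl11a (2.01) and Gli2 (0.34). The cause was not tested. For 2i against untreated cells, 1 probe set per gene called 311 lower, of which 11 were lower members. Fitted on the 4 arrays compared alone, 1149 were called higher and 845 lower, with 14 and 4 of the higher members. With the clone as a replicate block 817 were called higher and 559 lower, with 13 and 4 of the higher members, and the lower members gave 11 higher and 17 lower. For ESCs, 1 probe set per gene called 771 higher and 1244 lower, with 8 of the higher members called higher and 18 of the lower members called lower. The 4 arrays alone called 415 and 715, with 7 and 9 of the higher and 7 and 17 of the lower members. These 2 settings test fewer probe sets or use fewer arrays. Leaving out each array gave 33 to 1149 higher and 13 to 845 lower in 2i (2 to 14 and 0 to 6 of the higher, 0 to 12 and 4 to 44 of the lower members), and 415 to 1514 and 715 to 2292 in ESCs (7 to 15 and 9 to 19 of the higher, 7 to 21 and 17 to 62 of the lower members). Of the 36 members called in 2i, 6 kept the call in each alternative and 30 lost it in at least 1, and of the 72 called in ESCs 37 kept it and 35 lost it in at least 1, with no sign turned. A group left with 1 array was taken to vary like the others. Leaving out an array of the group that is not compared gives the same fit as the 4 arrays alone, so these settings are not separate checks.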
